A study of Homo sapiens with 24 samples.

Results

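The genes described are 10 components of the tight junction, the seal between neighbouring epithelial cells: the claudins CLDN1, CLDN2, CLDN3, CLDN4, CLDN7, CLDN10 and CLDN12, together with OCLN, F11R and TJP1. They were given as a list of names, and each symbol matched 1 Ensembl gene among the 78724 gene IDs of the count tables. The members were chosen by name with expression values of these same libraries, in all 8 groups, already in view, and no record says which of them weighed. All tests below therefore describe these libraries and are not independent evidence. RNA was sequenced from HuCCT1, a line from an intrahepatic cholangiocarcinoma grown in RPMI medium, and OCUG-1, a gallbladder cancer line grown in DMEM, both with 10% fetal bovine serum. Within each line there were 4 arms of 72 h with 3 biological replicates each, 24 libraries in all. The arms were sorafenib at 1.25 µM, sorafenib at 10 µM, a combination of IACS-010759 at 1 µM with sorafenib at 1.25 µM, and vehicle (DMSO, at most 0.1%). Sorafenib inhibits RAF, the VEGF receptors and other kinases, and IACS-010759 inhibits complex I of the mitochondrial respiratory chain. IACS-010759 was never given alone, each line is a single culture model, and line and medium differed together.

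Claudins span the membrane and polymerise into strands that decide what passes between cells. CLDN1, CLDN3, CLDN4 and CLDN7 are mostly described as sealing or charge-barrier claudins, CLDN2 forms a channel for small cations and water, and CLDN10 forms ion channels whose selectivity depends on its isoform. CLDN12 is a claudin without the usual PDZ-binding end, linked to calcium permeability. OCLN (occludin) is a second kind of strand protein, F11R (JAM-A) is an immunoglobulin-like adhesion receptor of the junction, and TJP1 (ZO-1) is the scaffold that ties the strands to actin. In bile ducts and the gallbladder this seal keeps bile away from the tissue around it. Only mRNA was measured, so nothing here shows protein, its place at the membrane, or permeability. In bulk RNA, fewer cells expressing a gene and less RNA per cell cannot be told apart.

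Total counts ran from 18238834 to 30693736 per library in HuCCT1 and from 14388855 to 24019011 in OCUG-1. Levels are CPM, the counts relative to library size with that size scaled by the trimmed mean of M values, and levels of different genes are compared only as CPM per kb of exon. Changes are log2 fold changes ± SE from edgeR's quasi-likelihood test, with 0.05 as the limit for p after Benjamini-Hochberg adjustment across every gene tested. Overlap of libraries between groups was looked at in the listed genes alone, so separate groups set no gene apart from the rest. Of 10 biliary epithelial markers, 8 or 9 exceeded 10 CPM in every group, and no endothelial or immune marker did. Of 7 fibroblast markers 2 did in every group, and at most 1 of 8 hepatocyte markers. The share of counts from all genes of mitochondrial DNA was 5.43% ± 0.93 in OCUG-1 combination libraries and 5.95% ± 0.30 at 10 µM, against 12.2% ± 1.26 in OCUG-1 vehicle (SD, n = 3 each). In HuCCT1, replicate 3 stood apart from replicates 1 and 2 in 3 of the 4 arms. The chi-square per degree of freedom between libraries was 27.3 to 50.6 in pairs with replicate 3 in the 10 µM, 1.25 µM and vehicle arms, against 5.45 to 11.7 between replicates 1 and 2 of those arms. In the combination the 3 pairs gave 4.42 to 9.02. Mitochondrial counts were 7.08% to 12.5% of these 3 libraries, against 9.72% to 21.8% of the other 6. HuCCT1 results are therefore also given with replicates 1 and 2 alone, a choice made after seeing the data. Leaving out the replicate that differs most narrows the spread among those kept, so p-values in that setting may be too small. Calls added there are descriptions only. Replicate 3 of the combination, which did not stand apart, was left out with the others.

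Without drug, CLDN1 had the highest mean level per length of the 10 genes in both lines, while CLDN7 came second in HuCCT1 and ninth in OCUG-1. In OCUG-1 vehicle the order per length ran CLDN1 (34.0 ± 4.31 CPM per kb), F11R (22.3 ± 1.20), CLDN10 (13.3 ± 1.16), CLDN4 (8.17 ± 0.24), CLDN12 (6.48 ± 1.05), TJP1 (6.44 ± 0.33), CLDN2 (3.11 ± 0.35), CLDN3 (2.78 ± 0.45), CLDN7 (1.42 ± 0.26) and OCLN (0.608 ± 0.173), as means with SD of 3 libraries. In HuCCT1 vehicle it ran CLDN1 (70.2 ± 1.03 CPM per kb), CLDN7 (55.8 ± 8.50), TJP1 (27.8 ± 0.91), F11R (24.9 ± 1.11), CLDN4 (15.3 ± 3.98), CLDN12 (15.0 ± 1.07), OCLN (7.61 ± 1.12), CLDN2 (2.40 ± 0.43) and CLDN3 (0.928 ± 0.280), with CLDN10 at 0. The neighbours CLDN12 and TJP1 and the neighbours CLDN2 and CLDN3 in OCUG-1, and CLDN4 and CLDN12 in HuCCT1, differed by less than their SDs. With the longest transcript as the length, CLDN12 moved ahead of CLDN4 in OCUG-1 and ahead of F11R and CLDN4 in HuCCT1.

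The difference between untreated lines passed the test for 8 of 10 genes, 2 higher and 6 lower in OCUG-1, where 68.3% of all genes tested did, 35.6% higher and 32.7% lower (edgeR's quasi-likelihood test, Benjamini-Hochberg adjusted, 3 against 3 libraries). CLDN10 had 701, 854 and 783 counts in the OCUG-1 vehicle libraries, against 0, 0 and 0 counts in those of HuCCT1. Taking 3 counts over the HuCCT1 group as the floor, CLDN10 was at least 993-fold higher in OCUG-1. In HuCCT1 its only counts were 3 in 1 library at 10 µM and 1 in 1 combination library, so the gene was not tested in that line. Part of the CLDN10 exons lies opposite exons of DZIP1, which averaged 129 CPM in OCUG-1 vehicle against 0.397 CPM in HuCCT1 vehicle. Whether counting used strand is not stated, so the CLDN10 counts of OCUG-1 may include DZIP1 reads.

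CLDN3 was the other gene higher in OCUG-1, with 3.00, 4.14 and 3.48 CPM against 1.36, 1.41 and 0.772 CPM in HuCCT1 (log2 difference 1.58 ± 0.29, edgeR adjusted p = 1.98e-05). CLDN7 was far lower in OCUG-1, with 2.83, 4.08 and 3.70 CPM against 121, 133 and 162 CPM in HuCCT1 (-5.29 ± 0.18). OCLN followed, with 2.83, 5.11 and 4.39 CPM in OCUG-1 against 51.3, 44.0 and 59.1 CPM in HuCCT1 (-3.64 ± 0.23). For each of these genes the libraries of the lines did not overlap. TJP1 (-2.11 ± 0.10), CLDN12 (-1.21 ± 0.11), CLDN1 (-1.04 ± 0.14) and CLDN4 (-0.90 ± 0.18) were also lower in OCUG-1. CLDN2 (0.37 ± 0.23) and F11R (-0.16 ± 0.12) did not pass the test, and with library totals alone as the scaling, which raised the median of all genes by 0.149, CLDN2 did (0.52).

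**Figure D1:**
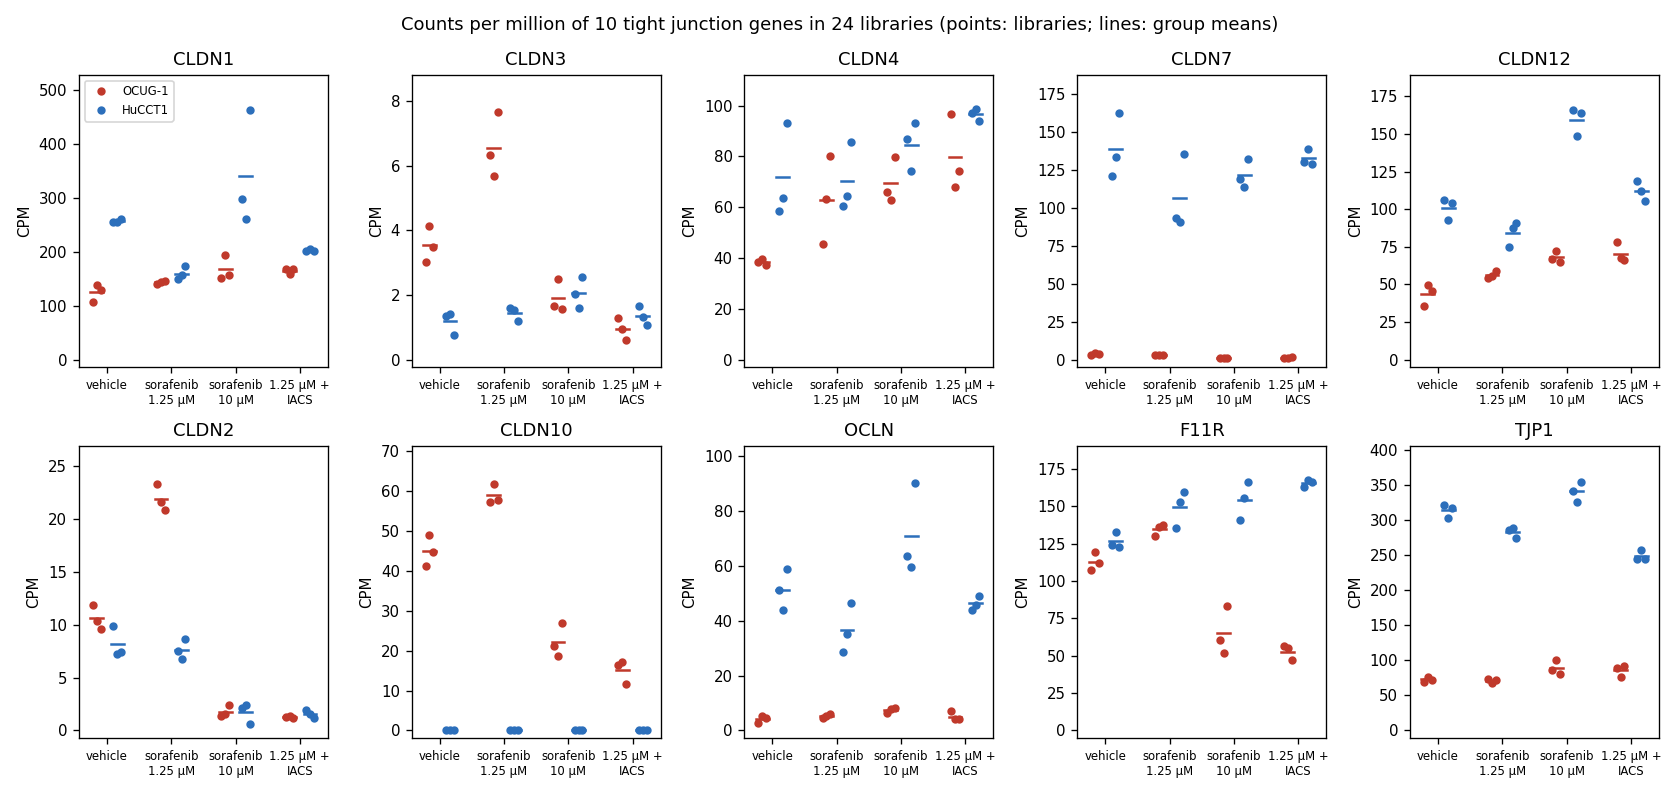
Level of each gene in CPM (y axis, linear, a separate scale per gene) in the 4 arms of OCUG-1 (red) and HuCCT1 (blue). Points are libraries and lines are means of 3. In OCUG-1 the CLDN2, CLDN10 and F11R points of the 10 µM and combination arms lie below all points of the vehicle and 1.25 µM arms, and HuCCT1 CLDN10 lies at or next to 0 throughout.

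In OCUG-1, sorafenib at 10 µM moved all 10 genes past the test, 5 up and 5 down, in a comparison in which 63.1% of all genes tested were called (32.4% higher and 30.7% lower). The median absolute change was 0.87 for the 10 genes and 0.72 for all genes tested. The genes that fell were both channel formers, CLDN2 and CLDN10, the barrier claudins CLDN3 and CLDN7, and F11R. Those that rose were CLDN1, CLDN4, CLDN12, OCLN and TJP1. Beside these changes the summed level of the 10 biliary markers was 2269 to 3504 CPM at 10 µM, against 6970 to 7668 CPM in vehicle, with 6 of the 10 lower and 2 higher, and its part in the junction results was not tested.

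CLDN2 (ENSG00000165376, chrX:106900164-106930861) showed the largest fall of the 10. It had 1.35, 1.55 and 2.38 CPM at 10 µM, against 11.9, 10.3 and 9.57 CPM in vehicle (-2.54 ± 0.19, edgeR adjusted p = 2.32e-09), from 37 to 46 counts per library against 168 to 202. Every 10 µM library lay far below every vehicle library. CLDN10 had 21.1, 18.7 and 27.0 CPM at 10 µM, against 41.3, 49.1 and 44.6 CPM in vehicle (-0.95 ± 0.15, edgeR adjusted p = 1.68e-05). Its groups did not overlap. In the annotation, 1558 exonic bases of CLDN10 (ENSG00000134873, chr13:95433604-95579759) lie opposite exons of DZIP1, which averaged 64.4 CPM at 10 µM, against 129 CPM in vehicle. No source used here says whether counting used strand, and reads of this antisense pair may therefore not be separated.

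Among the barrier claudins, CLDN7 had 0.913, 1.23 and 1.09 CPM at 10 µM, against 2.83, 4.08 and 3.70 CPM in vehicle (-1.65 ± 0.27, edgeR adjusted p = 4.09e-05). CLDN3 had 1.64, 2.49 and 1.55 CPM at 10 µM, against 3.00, 4.14 and 3.48 CPM in vehicle (-0.82 ± 0.26, edgeR adjusted p = 0.0107). Both sets of libraries were separate, but both genes were scarce here, at 21 to 61 counts per 10 µM library, and without vehicle replicate 2 the CLDN3 call ended (-0.70, adjusted p = 0.0505). CLDN4 went the other way, with 65.8, 62.9 and 80.0 CPM at 10 µM, against 38.5, 39.5 and 37.2 CPM in vehicle (0.93 ± 0.17, edgeR adjusted p = 0.000145). CLDN1, highest per length of the listed genes in vehicle, had 151, 194 and 157 CPM at 10 µM, against 107, 138 and 129 CPM in vehicle (0.50 ± 0.11). CLDN12 had 66.7, 72.1 and 65.1 CPM at 10 µM, against 35.7, 49.5 and 45.8 CPM in vehicle (0.71 ± 0.11), while GTPBP10, which shares 347 exonic bases with it on the same strand, averaged 42.8 CPM against 21.5 CPM. In these 3 rising claudins too, the groups did not overlap.

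The non-claudin members also divided. F11R had 60.4, 51.7 and 83.3 CPM at 10 µM, against 107, 119 and 112 CPM in vehicle (-0.72 ± 0.13, edgeR adjusted p = 0.000122). OCLN had 6.21, 7.80 and 8.28 CPM at 10 µM, against 2.83, 5.11 and 4.39 CPM in vehicle (0.92 ± 0.24, edgeR adjusted p = 0.00239). TJP1 had 86.4, 100.2 and 81.0 CPM at 10 µM, against 69.7, 76.7 and 71.4 CPM in vehicle (0.37 ± 0.10, edgeR adjusted p = 0.00475). F11R shares 1853 exonic bases with AL591806.3, which stayed at or below 1.66 CPM on average in every group. None of the 3 genes had overlapping groups, and TJP1 showed the smallest change of the 10.

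Adding IACS-010759 to 1.25 µM sorafenib in OCUG-1 moved 9 of the 10 genes past the test, where 58.1% of all genes tested were called (31.4% higher and 26.7% lower). The same 5 genes were lower as at 10 µM against vehicle, and 4 of the 5 that were higher there were higher here. How many of all genes did likewise was not counted, so whether this is particular to the list was not tested. Library totals alone shifted the median of all genes by 0.150 in this comparison. The summed level of the biliary markers was 2451 to 3270 CPM in the combination, against 9850 to 10220 CPM at 1.25 µM, and its part was not tested.

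CLDN2 had 1.24, 1.37 and 1.19 CPM in the combination, against 23.4, 21.6 and 20.8 CPM at 1.25 µM (-3.99 ± 0.20, edgeR adjusted p = 4.07e-11). CLDN3 had 1.29, 0.939 and 0.597 CPM in the combination, against 6.33, 5.68 and 7.65 CPM at 1.25 µM (-2.67 ± 0.28, edgeR adjusted p = 2.49e-07). CLDN10 had 16.5, 17.3 and 11.5 CPM in the combination, against 57.4, 61.8 and 57.7 CPM at 1.25 µM (-1.85 ± 0.15, edgeR adjusted p = 1.03e-08), while its antisense partner DZIP1 averaged 64.2 CPM against 109 CPM. The combination libraries of all 3 genes lay well below every library at 1.25 µM. F11R had 56.6, 54.9 and 46.8 CPM in the combination, against 130.1, 136 and 137 CPM at 1.25 µM (-1.23 ± 0.14, edgeR adjusted p = 4.14e-07). CLDN7 had 1.34, 0.854 and 1.69 CPM in the combination, against 2.94, 3.07 and 3.12 CPM at 1.25 µM (-1.12 ± 0.28, edgeR adjusted p = 0.00192). These groups were separate as well.

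The rises in the combination were smaller. CLDN12 (0.44 ± 0.11, edgeR adjusted p = 0.00283) and TJP1 (0.40 ± 0.10, edgeR adjusted p = 0.00315) were higher than at 1.25 µM with no overlap of libraries, and both calls held whichever single library was left out. CLDN1 (0.31 ± 0.11, edgeR adjusted p = 0.0210) lost its call without 1.25 µM replicate 1 or 2 or combination replicate 1 or 3 (0.25 to 0.31, adjusted p up to 0.110). CLDN4 had 96.9, 67.9 and 74.4 CPM in the combination, against 45.4, 63.1 and 80.3 CPM at 1.25 µM (0.46 ± 0.17, edgeR adjusted p = 0.0257), groups that overlapped. Its call ended without 1.25 µM replicate 1 (0.27) or 2 (0.45) or combination replicate 1 (0.24) or 3 (0.46). OCLN had 6.93, 4.01 and 4.18 CPM in the combination, against 4.60, 5.26 and 6.09 CPM at 1.25 µM, with a fitted change of 0.03 ± 0.24 that did not pass.

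Set against vehicle, the combination in OCUG-1 again called 9 of 10 genes, where 59.5% of all genes were called (31.5% higher and 28.1% lower). CLDN2 (-2.97 ± 0.20), CLDN3 (-1.82 ± 0.29), CLDN10 (-1.49 ± 0.15), CLDN7 (-1.37 ± 0.27) and F11R (-1.01 ± 0.13) were lower. CLDN4 (1.14 ± 0.17), CLDN12 (0.78 ± 0.11), CLDN1 (0.49 ± 0.11) and TJP1 (0.32 ± 0.10) were higher, and the TJP1 call ended without combination replicate 1 (0.25) or 3 (0.25). OCLN did not pass (0.37 ± 0.24), and the TJP1 libraries of the combination and vehicle overlapped.

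Sorafenib at 1.25 µM alone raised 3 of the 10 genes in OCUG-1 and lowered none, where 5.92% of all genes tested were higher and 4.61% lower (10.5% called). CLDN2 had 23.4, 21.6 and 20.8 CPM at 1.25 µM, against 11.9, 10.3 and 9.57 CPM in vehicle (1.02 ± 0.16, edgeR adjusted p = 0.000824). CLDN2 was thus higher than vehicle at 1.25 µM and lower at 10 µM and in the combination, with separate libraries each time. CLDN3 (0.85 ± 0.25, edgeR adjusted p = 0.0353) and CLDN4 (0.68 ± 0.17, edgeR adjusted p = 0.0188) were also called. Both lost the call without 1.25 µM replicate 2 or 3 or vehicle replicate 1 or 3, at 0.73 to 0.96 for CLDN3 and 0.48 to 0.69 for CLDN4, so 1 of the 10 genes was then called. Calls over all genes ran from 653 to 2558 with 1 library left out. CLDN4 ranged widely at this dose, with 45.4, 63.1 and 80.3 CPM against 37.2 to 39.5 CPM in vehicle. CLDN10 had 57.4, 61.8 and 57.7 CPM at 1.25 µM, against 41.3, 49.1 and 44.6 CPM in vehicle, and did not pass the test (0.36 ± 0.14, adjusted p = 0.108). Of all genes called, 56.2% were higher with the scaling used and 28.8% with library totals alone, under which CLDN3 was no longer called (0.76).

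Between the doses in OCUG-1, 9 of 10 genes were called, where 60.5% of all genes were (31.6% higher and 29.0% lower). CLDN2 was lower at 10 µM by the widest margin (-3.56 ± 0.19), followed by CLDN3 (-1.67 ± 0.26), CLDN7 (-1.40 ± 0.28), CLDN10 (-1.31 ± 0.15) and F11R (-0.95 ± 0.13). OCLN (0.58 ± 0.23), TJP1 (0.44 ± 0.10), CLDN12 (0.37 ± 0.11) and CLDN1 (0.32 ± 0.11) were higher at 10 µM, and CLDN4 did not pass (0.25 ± 0.17). The OCLN call ended without replicate 1 (0.49) or 2 (0.56) at 1.25 µM or replicate 2 (0.52) or 3 (0.48) at 10 µM. The CLDN1 call ended without replicate 2 at 1.25 µM (0.31) or at 10 µM (0.18).

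In HuCCT1, CLDN2 fell at 10 µM and in the combination, while most of the list did not pass the test in either. At 10 µM 3 of the 9 genes tested were called against vehicle, where 24.2% of all genes tested were (13.0% higher and 11.2% lower). CLDN2 had 2.13, 2.42 and 0.625 CPM at 10 µM, against 9.84, 7.23 and 7.44 CPM in vehicle (-2.21 ± 0.31, edgeR adjusted p = 9.32e-05), from 11 to 63 counts against 128 to 260. The lowest vehicle library stood above the highest 10 µM library. CLDN12 had 166, 149 and 164 CPM at 10 µM, against 106, 92.7 and 104 CPM in vehicle (0.66 ± 0.10, edgeR adjusted p = 0.000207), again without overlap. Exons of CLDN12 share 347 bases with GTPBP10 and 201 with CDK14, genes on the same strand that averaged 54.5 and 108 CPM at 10 µM, against 61.8 and 144 CPM in vehicle.

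F11R was called higher at 10 µM in HuCCT1 (0.29 ± 0.10, edgeR adjusted p = 0.0401), with 141, 156 and 167 CPM against 124, 133 and 123 CPM in vehicle. The groups did not overlap, but the call ended without 10 µM replicate 2 (0.28) or 3 (0.23) or any 1 vehicle replicate (0.27 to 0.33). CLDN1 had 298, 260.3 and 463 CPM at 10 µM, against 255, 255 and 261 CPM in vehicle, and did not pass (0.41 ± 0.16, adjusted p = 0.0675). The third 10 µM library stood apart from the other two. OCLN (0.46 ± 0.17, adjusted p = 0.0611) and CLDN3 (0.80 ± 0.30, adjusted p = 0.0619) also missed the threshold, though neither gene's groups overlapped. CLDN4 (0.24 ± 0.16), CLDN7 (-0.20 ± 0.14) and TJP1 (0.12 ± 0.09) were not called. With replicates 1 and 2 alone, 4 genes were called: CLDN2 and CLDN12 as before, OCLN (0.37) and CLDN4 (0.41), while F11R no longer passed (0.22, adjusted p = 0.0617). Calls over all genes also rose in that setting, to 6413 from 4747.

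The combination in HuCCT1 called 2 of 9 genes against 1.25 µM, where 11.6% of all genes tested were called (5.06% higher and 6.57% lower). CLDN2 had 1.96, 1.56 and 1.19 CPM in the combination, against 7.50, 6.79 and 8.65 CPM at 1.25 µM (-2.27 ± 0.31, edgeR adjusted p = 0.000253). The libraries were fully separate. CLDN12 had 119, 112 and 106 CPM in the combination, against 74.8, 87.7 and 90.9 CPM at 1.25 µM (0.41 ± 0.10, edgeR adjusted p = 0.0171). Its call ended without replicate 1 (0.33) or 2 (0.43) at 1.25 µM or combination replicate 1 (0.37) or 2 (0.41). Without 1.25 µM replicate 3 the comparison instead called 5 genes, CLDN4 (0.63), CLDN7 (0.53) and OCLN (0.53) in addition, while calls over all genes ran from 877 to 3224 across the fits with 1 library left out. With replicates 1 and 2 alone it called 6, the same 3 genes (0.66, 0.56 and 0.49) and CLDN1 (0.42) being added to CLDN2 and CLDN12. Calls over all genes rose there too, to 5853 from 2276. CLDN4 was even in the combination, at 97.2, 98.9 and 93.8 CPM against 60.4, 64.3 and 85.9 CPM at 1.25 µM, but did not pass with all libraries (0.46 ± 0.16, adjusted p = 0.0748). Library totals alone shifted the median of all genes by 0.187 here, made 82.4% of the genes called higher in place of 43.5%, and called 6 of 9 members. That setting called 3156 genes in all, against 2276. Counts from all genes of mitochondrial DNA made up 11.4% ± 1.08 of the combination libraries and 17.9% ± 4.83 of those at 1.25 µM (SD, n = 3 each), and their part in the shift with library totals was not tested.

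Against vehicle the combination in HuCCT1 called CLDN2 (-2.37 ± 0.31, edgeR adjusted p = 6.76e-05), F11R (0.39 ± 0.10, edgeR adjusted p = 0.00998) and TJP1 (-0.33 ± 0.09, edgeR adjusted p = 0.0135), 3 of 9 genes where 20.1% of all genes were called (9.94% higher and 10.1% lower). F11R had 163, 167 and 166 CPM in the combination, against 124, 133 and 123 CPM in vehicle, and TJP1 had 245, 257 and 244 CPM against 322, 302 and 317 CPM. In both genes the libraries were separate, and the TJP1 call ended without combination replicate 1 (-0.31) or 3 (-0.32) or vehicle replicate 1 (-0.31). With replicates 1 and 2 alone, CLDN4 (0.69) and CLDN1 (-0.31) were called as well, which made 5, while calls over all genes rose to 5516 from 3931.

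The low dose moved 1 of 9 genes in HuCCT1, where 18.5% of all genes tested were called (9.98% higher and 8.50% lower). CLDN1 had 150.1, 156 and 173 CPM at 1.25 µM, against 255, 255 and 261 CPM in vehicle (-0.68 ± 0.16, edgeR adjusted p = 0.00727). Vehicle libraries were nearly identical for this gene and all lay above the treated ones. CLDN2 had 7.50, 6.79 and 8.65 CPM at 1.25 µM, against 9.84, 7.23 and 7.44 CPM in vehicle (-0.10 ± 0.28), with overlapping libraries. OCLN (-0.48 ± 0.17, adjusted p = 0.0662), CLDN7 (-0.38 ± 0.14, adjusted p = 0.0743) and CLDN12 (-0.25 ± 0.10, adjusted p = 0.0899) missed the threshold, and all 3 passed without 1.25 µM replicate 3 (-0.68, -0.59 and -0.31), which made 4 calls. With replicates 1 and 2 alone the same 4 genes were called, OCLN at -0.57, CLDN7 at -0.47 and CLDN12 at -0.29. Calls over all genes rose with them, to 5956 from 3616. Without vehicle replicate 2, OCLN passed (-0.58), which made 2. Calls over all genes ran from 1710 to 4749 with 1 library left out. With library totals alone, which lowered the median of all genes by 0.145 and made 26.7% of the genes called higher in place of 54.0%, 5 of 9 members were called. That setting called 4223 genes in all, against 3616. Mitochondrial counts made up 12.5% to 21.8% of the libraries at 1.25 µM, against 7.08% to 14.1% of those of vehicle, and their part in this comparison was not tested.

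Dose against dose in HuCCT1, 5 of 9 genes were called, where 28.2% of all genes were (14.4% higher and 13.7% lower). CLDN1 (1.09 ± 0.16, edgeR adjusted p = 0.000174), OCLN (0.95 ± 0.18, edgeR adjusted p = 0.00114), CLDN12 (0.91 ± 0.10, edgeR adjusted p = 3.21e-05) and TJP1 (0.26 ± 0.09, edgeR adjusted p = 0.0324) were higher at 10 µM and CLDN2 was lower (-2.11 ± 0.31). OCLN had 63.5, 59.6 and 90.2 CPM at 10 µM, against 28.7, 35.2 and 46.3 CPM at 1.25 µM, with no overlap. The TJP1 call ended when any 1 of the 3 libraries at 1.25 µM (0.24 to 0.28) or 10 µM replicate 1 (0.27) or 3 (0.23) was left out. With replicates 1 and 2 alone, CLDN4 (0.38) and CLDN7 (0.35) were called in addition to the 5, while calls over all genes rose to 7295 from 5518. Library totals alone shifted all genes by 0.181 and made 77.5% of the genes called higher in place of 51.2%.

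**Figure D2:**
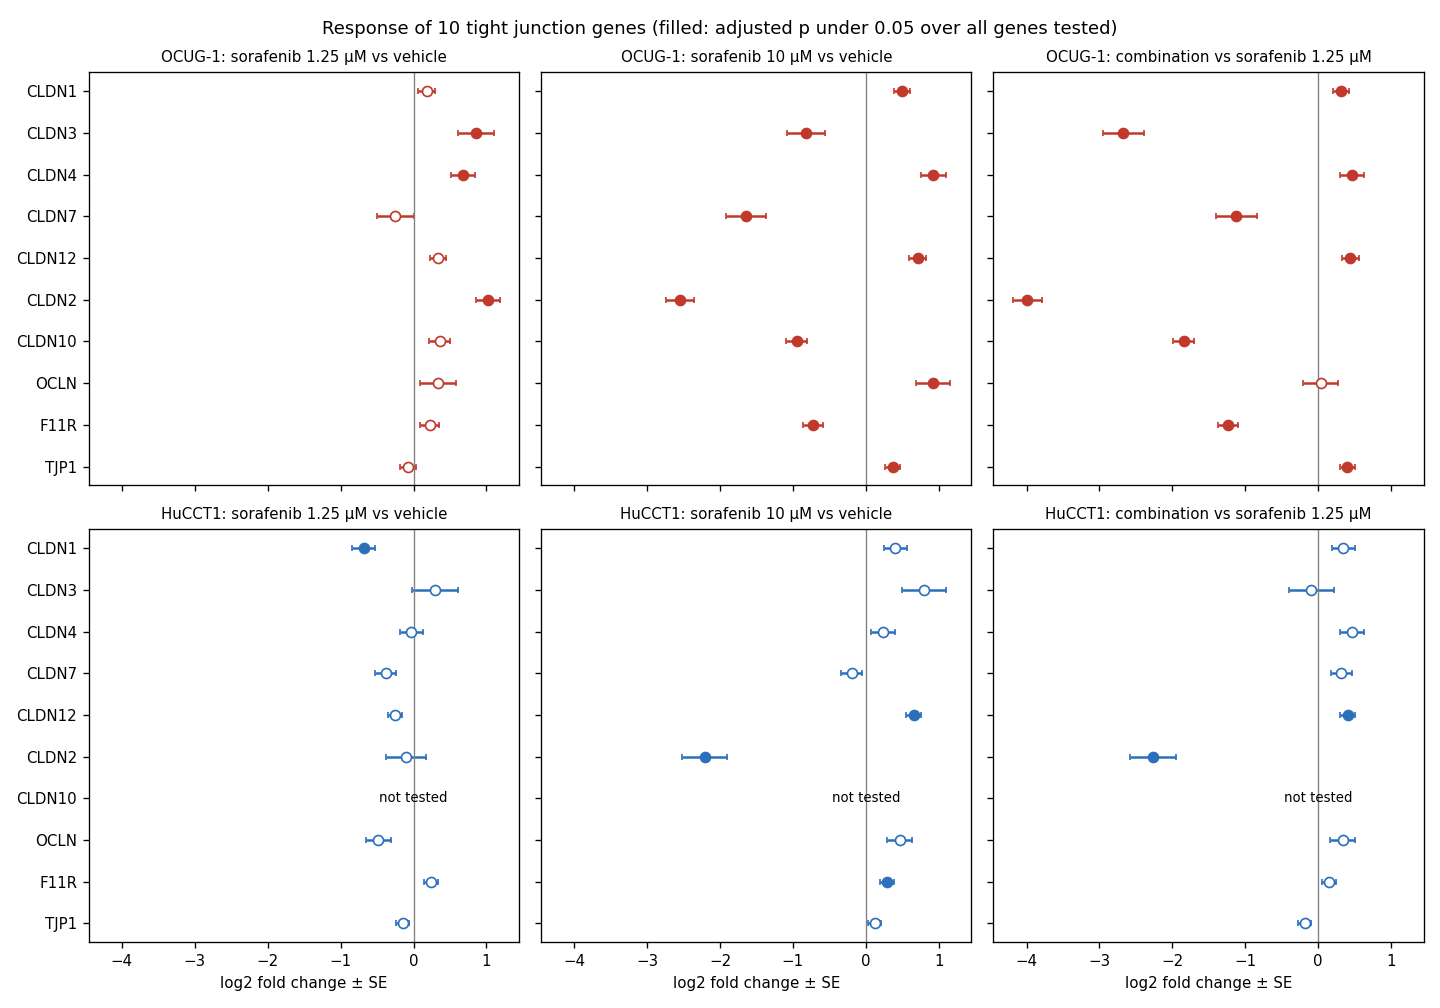
Log2 fold change ± SE (x axis) of each gene in 3 comparisons for OCUG-1 (top row, red) and HuCCT1 (bottom row, blue). Filled points passed an adjusted p under 0.05 over all genes tested, and CLDN10 was not tested in HuCCT1. CLDN2 lies far left in the 10 µM and combination panels of both lines, and CLDN3, CLDN7 and F11R only in those of OCUG-1.

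The difference of responses, OCUG-1 minus HuCCT1, was tested in 1 fit of all 24 libraries for 9 genes, CLDN10 having no estimate. At 10 µM it was called for 3 of 9, where 43.8% of all genes were (20.7% higher and 23.1% lower): CLDN3 (-1.69 ± 0.40), CLDN7 (-1.53 ± 0.27) and F11R (-1.08 ± 0.17). The CLDN2 falls were not told apart, with a difference of -0.41 and a 95% interval of -1.13 to 0.32. Without HuCCT1 10 µM replicate 3, the library with the lowest CLDN2 count of its group, the difference passed (-0.76, adjusted p = 0.0450), and with HuCCT1 replicates 1 and 2 alone it did not (-0.69, adjusted p = 0.0719). For CLDN1 the interval was -0.36 to 0.40, for CLDN12 -0.32 to 0.28 and for TJP1 -0.09 to 0.44. The CLDN4 difference (0.62 ± 0.26, interval 0.12 to 1.12) did not pass, at an edgeR adjusted p of 0.0534. It passed in all 6 alternatives that kept every library (0.59 to 0.69), but not with HuCCT1 replicates 1 and 2 alone (0.46, edgeR adjusted p = 0.143).

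For IACS-010759 on top of 1.25 µM sorafenib, the difference was called for 5 of 9 genes, where 38.8% of all genes were (18.6% higher and 20.2% lower): CLDN3 (-2.70 ± 0.42), CLDN2 (-1.84 ± 0.38), CLDN7 (-1.56 ± 0.27), F11R (-1.50 ± 0.17) and TJP1 (0.47 ± 0.13). All 5 calls held without any 1 library. CLDN2 fell in both lines, and further in OCUG-1. CLDN12 gave an interval of -0.39 to 0.22 around a difference of -0.08. For the low dose alone, CLDN2 (1.15 ± 0.32), CLDN1 (0.89 ± 0.20) and CLDN12 (0.62 ± 0.16) responded higher in OCUG-1, 3 of 9 where 9.65% of all genes were called (4.96% higher and 4.69% lower). The CLDN2 call ended without HuCCT1 1.25 µM replicate 1 (1.15) or 2 (1.08), HuCCT1 vehicle replicate 1 (0.99) or OCUG-1 vehicle replicate 3 (1.08), and 5 genes were called without HuCCT1 1.25 µM replicate 3. With 1 library left out, calls over all genes ran from 1209 to 3385. With HuCCT1 replicates 1 and 2 alone, OCLN (0.95) was called in addition to the 3, while calls over all genes rose to 2670 from 2214.

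As shares of the summed CPM per kb of the 7 claudins, the channel formers CLDN2 and CLDN10 together made up 23.8% ± 1.37 in OCUG-1 vehicle, 26.2% ± 1.89 at 1.25 µM and 8.96% ± 1.94 at 10 µM (SD, n = 3 each). In the combination they made up 6.17% ± 1.24, against 26.2% ± 1.89 at 1.25 µM. Most of this was CLDN10 alone, at 19.2% ± 0.45 in vehicle, 8.31% ± 1.77 at 10 µM and 5.69% ± 1.20 in the combination. Since 1558 exonic bases of CLDN10 lie opposite DZIP1 and strand use is not stated, these shares may include DZIP1 reads. CLDN1 accounted for 49.0% ± 1.58 in vehicle, 43.1% ± 1.54 at 1.25 µM and 57.3% ± 4.29 at 10 µM, and CLDN4 for 11.9% ± 1.18, 14.5% ± 3.27 and 18.7% ± 2.86. The sum itself was 79.6 ± 6.06 CPM per kb at 10 µM, against 69.3 ± 6.97 in vehicle. It leaves out CLDN8, at 78.4 CPM in OCUG-1 vehicle and lower at 10 µM, and CLDN15, at 14.8 CPM in OCUG-1 vehicle. The shares and the sum therefore hold for the listed claudins and not for all claudin mRNA of the line. In HuCCT1, CLDN1 and CLDN7 made up 44.1% ± 2.89 and 34.8% ± 2.48 in vehicle, and CLDN2 and CLDN10 together 1.52% ± 0.36. The CLDN2 and CLDN10 share was 0.304% ± 0.197 in HuCCT1 at 10 µM, against 1.52% ± 0.36 in vehicle, and 0.315% ± 0.077 in the combination, against 1.92% ± 0.14 at 1.25 µM. These groupings were made after the values were seen and carry no test.

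**Figure D3:**
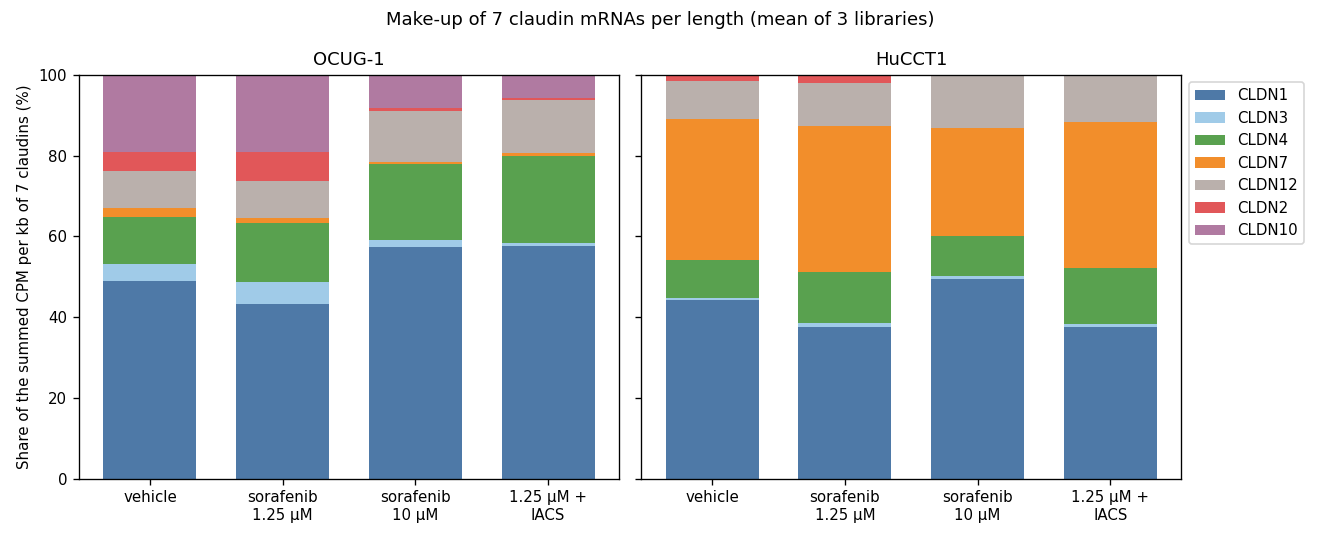
Share of each claudin in the summed CPM per kb of 7 claudins (y axis, %), as the mean of 3 libraries per arm, in OCUG-1 (left) and HuCCT1 (right). In OCUG-1 the CLDN2 and CLDN10 segments shrink to 8.96% at 10 µM and 6.17% in the combination, and in HuCCT1 CLDN1 and CLDN7 fill most of every bar. In OCUG-1 most of the CLDN2 and CLDN10 share is CLDN10, whose counts may include reads of the antisense gene DZIP1.

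CLDN3 and CLDN4 lie close together on chromosome 7 (GRCh38, chr7:73768997-73770270 on the minus strand and chr7:73799542-73832693 on the plus strand), and in OCUG-1 at 10 µM CLDN3 was lower and CLDN4 higher. For that contrast their promoter windows are printed, with those of CLDN2, the gene with the largest falls, and CLDN7, with 250 bases before and 50 after the RefSeq start (build GRCh38.p14). Capitals mark matches to the E-box CAGGTG, which reads CACCTG on the other strand and is the core that the repressors of the SNAI and ZEB families bind, and to the AP-1 motif TGANTCA. Both were searched on both strands, and no 2 matches overlap in the windows shown.
CLDN2 (chrX:106899914-106900213, plus strand): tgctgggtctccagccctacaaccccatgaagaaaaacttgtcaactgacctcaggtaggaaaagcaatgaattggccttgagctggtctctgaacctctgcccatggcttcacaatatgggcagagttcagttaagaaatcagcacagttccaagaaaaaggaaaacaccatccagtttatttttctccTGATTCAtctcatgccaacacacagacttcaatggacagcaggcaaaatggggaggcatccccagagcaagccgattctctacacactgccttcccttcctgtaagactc
CLDN3 (chr7:73770221-73770520, minus strand): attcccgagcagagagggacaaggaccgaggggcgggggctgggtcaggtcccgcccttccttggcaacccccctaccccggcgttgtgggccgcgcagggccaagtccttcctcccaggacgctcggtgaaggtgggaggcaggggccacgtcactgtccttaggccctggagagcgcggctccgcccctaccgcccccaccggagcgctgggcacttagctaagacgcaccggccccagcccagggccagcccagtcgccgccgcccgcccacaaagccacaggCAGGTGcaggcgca
CLDN4 (chr7:73830746-73831045, plus strand): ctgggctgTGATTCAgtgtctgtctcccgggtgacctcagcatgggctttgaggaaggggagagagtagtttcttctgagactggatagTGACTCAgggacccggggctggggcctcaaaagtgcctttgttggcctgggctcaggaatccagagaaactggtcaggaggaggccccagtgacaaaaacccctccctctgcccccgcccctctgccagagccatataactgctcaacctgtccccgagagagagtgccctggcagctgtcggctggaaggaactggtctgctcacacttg
CLDN7 (chr17:7262429-7262728, minus strand): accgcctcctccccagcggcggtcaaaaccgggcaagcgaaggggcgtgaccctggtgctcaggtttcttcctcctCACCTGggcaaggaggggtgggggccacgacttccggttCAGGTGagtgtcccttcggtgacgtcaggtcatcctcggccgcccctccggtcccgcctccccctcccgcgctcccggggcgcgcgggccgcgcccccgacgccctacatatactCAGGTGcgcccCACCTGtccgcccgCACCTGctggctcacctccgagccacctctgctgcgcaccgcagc
The motifs were picked after the changes were known, and a match is a description of letters only. Of 35116 windows of this length in the RefSeq table, 20.6% held the E-box and 7.71% the AP-1 motif. RefSeq windows were matched for 9 of the 10 genes, 16 in all, of which 5 held the E-box (in CLDN3, CLDN7, OCLN and TJP1) and 2 the AP-1 motif (in CLDN2 and CLDN4). In OCUG-1 at 10 µM, CLDN3 and CLDN7 were lower than in vehicle, while OCLN and TJP1, whose windows are not printed, were higher. CLDN2, with the largest fall, had no E-box in its windows. Of the genes with the AP-1 motif, CLDN2 was lower and CLDN4 higher. Neither motif thus went with 1 direction of change. The CLDN7 window shown held 5 E-box matches, at positions -174, -135, -20, -9 and 6 from the start, and a second CLDN7 window, not printed, held 0 matches of either motif. CLDN4 held 2 AP-1 matches, at -242 and -161, and the CLDN2 window shown held 1 at -60. A second CLDN2 window, not printed, also held 0 of either motif, and for both genes the window with matches is the one shown. The GC box GGGCGG, the TATA box TATAAA and the grainyhead motif AACCNGTT were also searched and are not marked. They were in 9, 0 and 0 of the 16 windows, and in 45%, 11.5% and 1.73% of all RefSeq windows.

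In the list of epithelial transcription regulators, which holds both activators and repressors of epithelial genes, 5 of 14 genes tested were higher and 6 lower in OCUG-1 at 10 µM than in vehicle, with a median change of -0.49, against 0.0007 for all genes. Of all genes tested, 32.4% were higher and 30.7% lower there. SNAI1, a repressor of epithelial genes, averaged 115 ± 52.8 CPM at 10 µM, against 8.01 ± 0.78 CPM in vehicle (3.91 ± 0.42, edgeR adjusted p = 1.10e-05), and SNAI2 averaged 18.8 ± 2.1 CPM against 9.73 ± 1.7 CPM (1.03 ± 0.16). ZEB1 averaged 45.3 ± 6.9 CPM at 10 µM, against 23.6 ± 1.5 CPM in vehicle (1.01 ± 0.12). EHF, an epithelial ETS factor, averaged 5.12 ± 0.81 CPM at 10 µM, against 47.1 ± 3.0 CPM in vehicle (-3.14 ± 0.15). In the combination, 6 of 14 were higher and 4 lower than at 1.25 µM, where 31.4% and 26.7% of all genes were, among them SNAI2 (2.22 ± 0.16), ZEB1 (1.26 ± 0.12), KLF5 (1.05 ± 0.14) and EHF (-2.11 ± 0.15). In HuCCT1 at 10 µM, 3 of 19 were higher and 2 lower, where 13.0% and 11.2% of all genes were, with ESRP1, an epithelial splicing regulator, at 0.63 ± 0.10, GRHL1 at 1.06 ± 0.20 and EHF at -0.44 ± 0.10. Whether any of these regulators acts on the junction genes was not tested.

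The remaining claudins were mostly scarce. Of 17 others, 8 were tested in OCUG-1, and 2 rose and 2 fell at 10 µM, where 32.4% and 30.7% of all genes did. CLDN8, a barrier claudin of the kidney and gut, averaged 16.1 ± 7.3 CPM at 10 µM, against 78.4 ± 17.9 CPM in vehicle (-2.21 ± 0.33, edgeR adjusted p = 0.000122), and 11.2 ± 3.6 CPM in the combination, against 67.6 ± 1.5 CPM at 1.25 µM (-2.47 ± 0.34). HuCCT1 vehicle libraries held no CLDN8 counts. CLDN18 was also lower at 10 µM (-2.22 ± 0.44), and CLDN14 higher (1.59 ± 0.59). Both were scarce in OCUG-1 vehicle, CLDN18 at 2.05 ± 0.69 CPM and CLDN14 at 0.154 ± 0.034 CPM, so the CLDN14 change starts close to no counts. CLDN6, a claudin of early embryonic epithelium, averaged 2.50 ± 0.40 CPM at 10 µM, against 0.174 ± 0.058 CPM in OCUG-1 vehicle (3.87 ± 0.44). In HuCCT1, 6 of the 17 were tested and 1 rose and 1 fell at 10 µM: CLDN16, at 1.86 ± 0.99 CPM against 0.645 ± 0.081 CPM in vehicle, and CLDN9, at 3.68 ± 0.92 CPM against 5.98 ± 1.35 CPM. Of all genes 13.0% rose and 11.2% fell there. With replicates 1 and 2 alone 0 of these claudins rose and 2 fell, while calls over all genes rose to 6413 from 4747.

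Of the other tight junction proteins, 3 of 18 rose and 8 fell in OCUG-1 at 10 µM, where 32.4% and 30.7% of all genes did, with a median change of -0.42. The scaffold MAGI1 averaged 10.8 ± 0.34 CPM at 10 µM, against 37.3 ± 2.7 CPM in vehicle (-1.72 ± 0.15), TJP3 (ZO-3) 4.43 ± 1.7 CPM against 16.9 ± 3.6 CPM (-1.87 ± 0.22), and CGNL1 (paracingulin) 1.34 ± 0.46 CPM against 4.97 ± 0.92 CPM (-1.84 ± 0.27). In the combination 4 of 18 were higher and 9 lower than at 1.25 µM, where 31.4% and 26.7% of all genes were, with a median of -0.47, against 0.06 for all genes. MAGI1 (-1.60 ± 0.15) and TJP3 (-2.41 ± 0.23) were among the lower ones. In HuCCT1 at 10 µM the split was 6 higher and 4 lower of 20, beside 13.0% and 11.2% of all genes.

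Polarity complexes, which place the junction at the apical edge, gave 4 higher and 5 lower of 16 in OCUG-1 at 10 µM, with a median of -0.20, where 32.4% of all genes were higher and 30.7% lower. LLGL2, a basolateral polarity protein, averaged 10.5 ± 2.2 CPM, against 46.5 ± 9.1 CPM in vehicle (-2.08 ± 0.19), and LIN7C, a partner of PALS1, 75.3 ± 6.3 CPM against 28.6 ± 5.0 CPM (1.47 ± 0.13). Of adherens junction and desmosome genes 4 rose and 7 fell of 18 (median -0.13) beside the same shares of all genes, with the adhesion receptor NECTIN2 (-1.20 ± 0.11), p120 catenin CTNND1 (-1.38 ± 0.14) and plakoglobin JUP (-1.34 ± 0.18) lower. E-cadherin, CDH1, was already scarce in OCUG-1, at 3.13 ± 0.44 CPM in vehicle against 178 ± 27.5 CPM in HuCCT1 vehicle, and averaged 0.335 ± 0.083 CPM in the combination, against 3.20 ± 0.61 CPM at 1.25 µM (-3.12 ± 0.37). Among kinases and actomyosin genes of the junction 7 rose and 3 fell of 17 at 10 µM (median 0.12), again beside 32.4% and 30.7% of all genes, with the RhoA activators ARHGEF2 (1.20 ± 0.11) and ARHGEF18 (1.07 ± 0.09) higher and the myosin light chain MYL9 (-1.34 ± 0.14) lower. In HuCCT1 at 10 µM the same 3 lists gave 3 higher and 0 lower of 15, 6 and 2 of 18, and 1 and 2 of 18, where 13.0% of all genes were higher and 11.2% lower. With replicates 1 and 2 alone these lists gave 7 higher and 1 lower, 7 and 1, and 2 and 4, while calls over all genes rose to 6413 from 4747. The lists were chosen with earlier results of these libraries known.

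**Figure D4:**
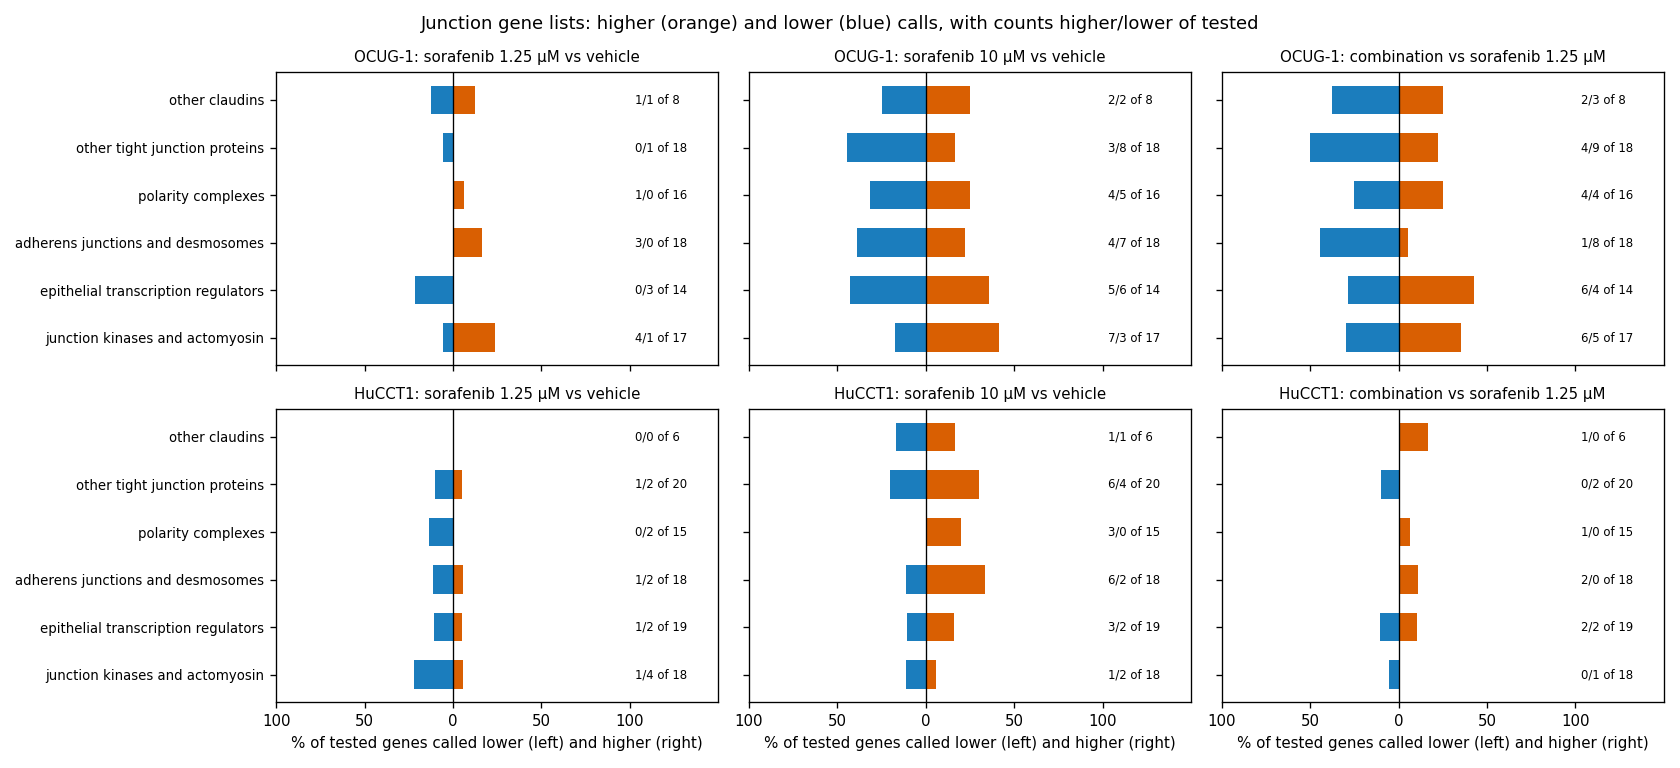
Share of tested genes in 6 junction lists called lower (blue, left) and higher (orange, right) in 3 comparisons (x axis, %), for OCUG-1 (top) and HuCCT1 (bottom), with the counts of higher and lower calls beside each bar. Among other tight junction proteins in OCUG-1, 8 of 18 were lower at 10 µM and 9 of 18 in the combination.

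CLDN2 had the widest range of group means of the 10 genes in both lines, 3.67 on the log2 CPM scale in OCUG-1 and 2.07 in HuCCT1. The 5 genes most like it across the 12 OCUG-1 libraries, of 10092 with a mean of at least 10 CPM, were ALDH7A1, UNC93B1, PTTG1, FZD2 and MRC2, with Pearson coefficients of log2 CPM of 0.990 to 0.993. In HuCCT1 they were RASSF10, ZNFX1, DCBLD2, IFI6 and EWSR1 among 9849 genes, at 0.967 to 0.977. The 12 libraries of a line share its 4 arms, which alone can make such coefficients high, and no gene was in both sets of 5.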

How the data were processed

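The raw counts per gene, from 14388855 to 30693736 per library, were used as deposited. The submitters' processing notes name fastp 1.3.2, HISAT2 2.2.2, Subread 2.1.1 and the build GRCh38, with no order or role. Per the labels, total RNA was extracted with TRIzol and libraries were made with a TruSeq mRNA kit. The sources used here give neither the annotation release nor the strand option. Per the design text, 4 OCUG-1 libraries also had further sequencing runs, which the deposited tables hold as 1 column per library.

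The listed genes, the 6 further gene lists and the motifs were chosen with earlier results of these data known. edgeR 4.0.16 (R 4.3.3, limma 3.58.1) fitted the 12 libraries of each line by arm, with TMM scaling, filterByExpr at a minimum count of 10 and a robust quasi-likelihood F test, two-sided, over 19576 genes in HuCCT1 and 20511 in OCUG-1. A fit of all 24 libraries over 22944 genes gave differences between lines and between their responses, with 95% intervals from the estimate and its SE. The procedure was tested on simulated counts. All 10 listed genes are described in every comparison, and up to 4 called genes per further list, those with the smallest adjusted p, may be named. The genes most like CLDN2 are the 5 with the highest Pearson coefficient. CPM per kb used the union of exons in GENCODE 29. Gene symbols were matched for 61481 of 78724 IDs. Promoter sequences are from RefSeq (GRCh38.p14). Replicates are biological per the design text, and no 2 libraries were identical. The p-values rest on the spread among replicates, estimated over all groups of a fit together and moderated across genes. Alternatives were DESeq2 1.42.0 as the test, its size factors in edgeR, library totals alone, no filter, only the compared groups, the replicate number as a block, each library left out in turn and, added after seeing the data, HuCCT1 replicates 1 and 2 alone.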

Additional observations from a re-analysis of the deposited data

Results flagged for a closer look

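The values here are differences of log2 responses, OCUG-1 minus HuCCT1, each tested as an interaction in 1 edgeR fit of all 24 libraries and adjusted by Benjamini-Hochberg over all genes. They were singled out because the lines responded differently by that test, and they describe genes chosen with results known.

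At 1.25 µM sorafenib, CLDN1 differed by 0.89 ± 0.20 (edgeR adjusted p = 0.00418): it changed by 0.18 in OCUG-1, without a call, and by -0.68 in HuCCT1. CLDN2 differed by 1.15 ± 0.32 (edgeR adjusted p = 0.0215), and CLDN12 by 0.62 ± 0.16 (edgeR adjusted p = 0.0106), with neither CLDN12 response called in its own line.

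At 10 µM, CLDN3 differed by -1.69 ± 0.40 (edgeR adjusted p = 0.00102), CLDN7 by -1.53 ± 0.27 (edgeR adjusted p = 3.41e-05) and F11R by -1.08 ± 0.17 (edgeR adjusted p = 5.90e-06). F11R was called in opposite directions, lower in OCUG-1 and higher in HuCCT1, and the HuCCT1 call ended without any 1 of 5 libraries.

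For IACS-010759 on top of 1.25 µM sorafenib, CLDN2 differed by -1.84 ± 0.38 (edgeR adjusted p = 0.000282), CLDN3 by -2.70 ± 0.42 (edgeR adjusted p = 6.70e-06) and CLDN7 by -1.56 ± 0.27 (edgeR adjusted p = 3.52e-05). F11R differed by -1.50 ± 0.17 (edgeR adjusted p = 4.54e-08) and TJP1 by 0.47 ± 0.13 (edgeR adjusted p = 0.00660), the TJP1 response being called higher in OCUG-1 and not called in HuCCT1. CLDN3 and CLDN7 rest on few counts, since CLDN3 had 12 to 25 counts per OCUG-1 combination library and 26 to 49 per HuCCT1 combination library.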

How the results depend on the processing

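Across all alternatives no listed gene reversed its direction while called: 1687 gene results kept their side of the threshold, 56 lost a call and 85 gained one. For the called genes of the further lists that could be named, 3541 results kept the call and 261 lost it. The counts of listed genes called in OCUG-1 at 10 µM and in the combination stayed within 1.5 times under every alternative. In HuCCT1, the combination against 1.25 µM called 2 listed genes, but 6 with library totals alone, 6 with no filter, 4 with only the compared groups and 1 to 5 with 1 library left out. Over all genes it called 2276, against 3156 with library totals alone, 2498 with no filter, 3474 with only the compared groups and 877 to 3224 with 1 library left out. The combination against vehicle called 3, but 5 with only the compared groups. Over all genes it called 3931, against 4998 with only the compared groups and 2342 to 3293 with 1 library left out. The 1.25 µM dose against vehicle called 1, but 2 with DESeq2, 5 with library totals alone, 3 with no filter and 1 to 4 with 1 library left out. Over all genes it called 3616, against 4278 with DESeq2, 4223 with library totals alone, 3780 with no filter and 1710 to 4749 with 1 library left out. The 10 µM dose against vehicle called 3, and 2 to 5 with 1 library left out, and 4747 genes in all, against 3416 to 4697. Against 1.25 µM that dose called 5518 genes in all, and 3472 to 6284 with 1 left out. In OCUG-1, 1.25 µM against vehicle called 3, and 1 to 4 with 1 library left out, and 2160 genes in all, against 653 to 2558. The difference between lines at 1.25 µM called 3, but 5 with DESeq2, 5 with no filter and 2 to 5 with 1 library left out. Over all genes it called 2214, against 3004 with DESeq2, 2443 with no filter and 1209 to 3385 with 1 library left out. With HuCCT1 replicates 1 and 2 alone, an alternative chosen after seeing the data, the combination called 6 listed genes and 5853 in all against 1.25 µM. Against vehicle the combination called 5 listed genes and 5516 in all, and 1.25 µM called 4 and 5956. The replicate dropped was the one that differed most in 3 of 4 arms, so p-values in that setting may be too small. The cause of these shifts was not tested. With the replicate number as a block, HuCCT1 had 3 listed genes called at 1.25 µM and 5 at 10 µM, the difference between lines at 1.25 µM had 5, and the CLDN3 call at 1.25 µM in OCUG-1 ended (0.86). Over all genes the block called 4295 at 1.25 µM and 5201 at 10 µM in HuCCT1, against 3616 and 4747. For the difference between lines at 1.25 µM it called 2291, against 2214. The numbers were not taken as pairs, though HuCCT1 replicate 3 stood apart in 3 of 4 arms: 8 of 18 same-numbered pairs in HuCCT1 and 4 of 18 in OCUG-1 had deviations correlated above 0.1, and 5 and 4 of 12 libraries correlated best with their own number. Depth limits CLDN2, CLDN3, CLDN7 and, in OCUG-1 vehicle, OCLN where a library held under 50 counts, and shares of mRNA say nothing of total RNA per cell.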
